A study of Mus musculus with 3 samples.

Results

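Glutamate handling in the cochlea was followed through 7 genes of 32285 listed in the expression matrices. They were matched by symbol and not by a cutoff on measured values, but were chosen with earlier results of these data known. The uptake side was covered by the glutamate transporters Slc1a2 and Slc1a3 and the glutamine synthetase gene Glul. The receptors were the AMPA receptor subunit genes Gria2, Gria3 and Gria4 and the NMDA receptor subunit gene Grin1. All 7 were detected in each of the 3 libraries. As background, inner hair cells (IHCs) release glutamate onto the afferent endings of spiral ganglion neurons (SGNs), where AMPA receptors assembled from GluA subunits open to pass the excitatory current. NMDA receptors need the GluN1 subunit that Grin1 encodes. Released glutamate is taken up by sodium-coupled transporters in supporting and glial cells, GLAST (Slc1a3) being the one known around IHCs and GLT-1 (Slc1a2) the main forebrain astrocyte transporter, and glutamine synthetase (Glul) turns glutamate and ammonia into glutamine.

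Cochleae of C57/B6 mice (C57BL/6J in the methods) were dissociated with collagenase and trituration and sequenced as whole single cells with 10x 3′ chemistry, giving 1 library at postnatal day 14 (P14) and 2 libraries at P28. Each library pooled 14 cochleae from 7 mice, with no treatment or altered allele in the labels, so a library is 1 sample and no spread between animals can be given. The libraries held 10125255, 35485894 and 37530956 unique molecular identifiers (UMIs) over 2513, 11948 and 18196 barcodes, and 1662, 5649 and 7065 cells were kept at 200 to 6000 genes and at most 15% mitochondrial UMIs. Between 10 and 54 barcode sequences were shared by a pair of libraries, 4 to 10 of them among kept cells. With 1 library at P14, no difference between ages could be tested.

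Cells were grouped into 18 clusters at P14 and 32 at P28 and named "-like" from marker lists that contained none of the 7 genes, and the 7 genes were also kept out of the genes used for clustering. SGN-like cells (333 and 296 in the P28 libraries) and Schwann or satellite glial (SC/SGC)-like cells (71 and 45) were found at P28 and in no named cluster at P14. IHC-like cells numbered 60, 113 and 76 and OHC-like cells 277, 365 and 284 in the P14 and both P28 libraries. No cluster could be named for inner phalangeal and inner border (IPhC/IB) cells, the supporting cells that enwrap IHCs. A P28 cluster of 290 and 345 cells, led by Slitrk6 and with all 5 interdental and 5 of 7 IPhC/IB markers enriched, scored too closely on both lists and stayed unnamed. It is called the Slitrk6-led cluster here. Levels are given as CPM, the UMIs of a gene scaled to 1e6 UMIs of its class in that library, with exact Poisson 95% intervals, which cover counting error only. Because each UMI tags 1 molecule at its 3′ end, CPM values of different genes are set side by side without a length correction. Whether the genes are captured equally well was not tested, so orders and shares across genes are those of UMIs.

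The receptor genes sit on mouse chromosomes 3 (Gria2, mm10 chr3:80681450-80802835, minus strand), X (Gria3, chrX:41400854-41678601, plus strand), 9 (Gria4, chr9:4417896-4796234, minus strand) and 2 (Grin1, chr2:25291181-25319187, minus strand). Slc1a2 lies on chr2:102658659-102790784 (plus strand), Slc1a3 on chr15:8634124-8710764 (minus strand) and Glul on chr1:153899944-153909723 (plus strand). The promoters of 3 receptor genes found almost exclusively in SGN-like cells are shown because these genes moved together, beside those of Slc1a3 and Glul, which were spread over many cell types. Each runs 5′ to 3′ on the gene's strand from 250 bases before to 50 bases after the RefSeq start, from GRCm38.p6: Gria2 chr3:80802786-80803085, Gria4 chr9:4796185-4796484, Grin1 chr2:25319138-25319437, Slc1a3 chr15:8710758-8711057 and Glul chr1:153899679-153899978.
Gria2: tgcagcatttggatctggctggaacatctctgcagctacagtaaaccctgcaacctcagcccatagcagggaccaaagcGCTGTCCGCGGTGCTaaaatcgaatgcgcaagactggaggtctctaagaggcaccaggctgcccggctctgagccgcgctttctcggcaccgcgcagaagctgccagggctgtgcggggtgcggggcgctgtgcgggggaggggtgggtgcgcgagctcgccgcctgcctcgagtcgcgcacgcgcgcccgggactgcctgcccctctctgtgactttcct
Gria4: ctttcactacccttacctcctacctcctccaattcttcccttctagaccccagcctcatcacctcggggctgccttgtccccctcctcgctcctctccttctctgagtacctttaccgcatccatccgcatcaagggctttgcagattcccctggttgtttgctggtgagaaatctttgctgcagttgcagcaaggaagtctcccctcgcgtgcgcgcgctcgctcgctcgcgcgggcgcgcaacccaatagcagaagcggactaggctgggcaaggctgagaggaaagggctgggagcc
Grin1: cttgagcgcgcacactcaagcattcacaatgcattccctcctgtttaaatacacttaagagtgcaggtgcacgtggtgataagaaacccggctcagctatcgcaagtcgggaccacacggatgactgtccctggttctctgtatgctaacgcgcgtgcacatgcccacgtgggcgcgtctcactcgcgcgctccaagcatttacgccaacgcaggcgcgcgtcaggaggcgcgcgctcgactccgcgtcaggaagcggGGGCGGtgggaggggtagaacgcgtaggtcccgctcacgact
Slc1a3: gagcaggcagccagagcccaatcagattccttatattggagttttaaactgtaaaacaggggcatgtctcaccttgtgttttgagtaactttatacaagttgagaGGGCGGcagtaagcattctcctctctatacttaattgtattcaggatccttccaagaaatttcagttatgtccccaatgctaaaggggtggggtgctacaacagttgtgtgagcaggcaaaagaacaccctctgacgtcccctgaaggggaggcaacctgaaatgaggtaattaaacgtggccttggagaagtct
Glul: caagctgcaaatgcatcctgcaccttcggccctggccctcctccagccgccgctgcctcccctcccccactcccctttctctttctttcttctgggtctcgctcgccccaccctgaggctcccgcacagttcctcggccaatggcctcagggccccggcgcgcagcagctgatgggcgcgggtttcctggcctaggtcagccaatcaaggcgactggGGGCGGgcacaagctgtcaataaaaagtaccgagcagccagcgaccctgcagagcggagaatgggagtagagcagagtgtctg
Capitals mark matches to 2 motifs, each searched on both strands. The core of the RE1 element, read here as AGCACC, any 2 bases and GGACAGC, which the neuronal gene repressor REST binds, was matched in 10 of 32851 RefSeq promoters of this length (0.0304%). Of the promoters printed it was matched in that of Gria2 only, on the opposite strand as GCTGTCCGCGGTGCT, with its first base 171 bases before the start. The GC box GGGCGG was matched in 35.7% of all promoters, and here 145 bases before the Slc1a3 start, 33 bases before the Glul start and at base 9 of the Grin1 transcript. Neither motif overlapped the other, and the Gria4 window held neither. A match is a match of letters and was not tested as a binding site.

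Glutamate receptor transcripts belonged to SGN-like cells. At P28 the SGN-like cells held 98.7% and 98.1% of all Gria2 UMIs in the 2 libraries, 98.5% and 99.1% of Grin1, 93.5% and 91.6% of Gria4, and 75.7% and 68.9% of Gria3, with 13.9% of all UMIs in each library. Gria2, the subunit that makes AMPA channels calcium-impermeable when its transcript is edited, reached 291 and 311 CPM in SGN-like cells (994 and 1006 UMIs) against 0.614 and 0.997 CPM in all other cells. Gria3 stood at 326 and 323 CPM against 16.9 and 23.5 CPM elsewhere. Gria4, whose subunit forms rapidly gating channels, stood at 148 CPM in each library. Grin1 was the highest of the 4, at 382 and 374 CPM (1306 and 1210 UMIs). In every case the 2 P28 libraries lay close together and far from the rest.

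All 4 receptor genes were called higher and all 3 uptake genes lower in SGN-like cells than in all other cells of the same P28 libraries (edgeR quasi-likelihood test on UMI sums, Benjamini-Hochberg adjustment over all genes), where 34.9% of tested genes were higher and 41.6% lower. The median log2 fold change was 3.95 over the 7 genes and -0.16 over all genes tested. The log2 fold change was 8.90 for Grin1 (SE 0.19, adjusted p = 2.35e-08), 8.48 for Gria2 (SE 0.20, adjusted p = 2.76e-08), 6.20 for Gria4 (SE 0.16, adjusted p = 3.60e-08) and 3.95 for Gria3 (SE 0.18, adjusted p = 5.58e-07). Slc1a3 was lower by this test (-4.46, SE 0.21, adjusted p = 7.61e-07), as were Slc1a2 (-3.78, SE 0.36, adjusted p = 3.39e-05) and Glul (-1.85, SE 0.22, adjusted p = 0.000128). The Slc1a2 call was lost once cells over 3000 genes or 15000 UMIs were taken out (log2 fold change -0.46, adjusted p = 0.571).

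**Figure D1:**
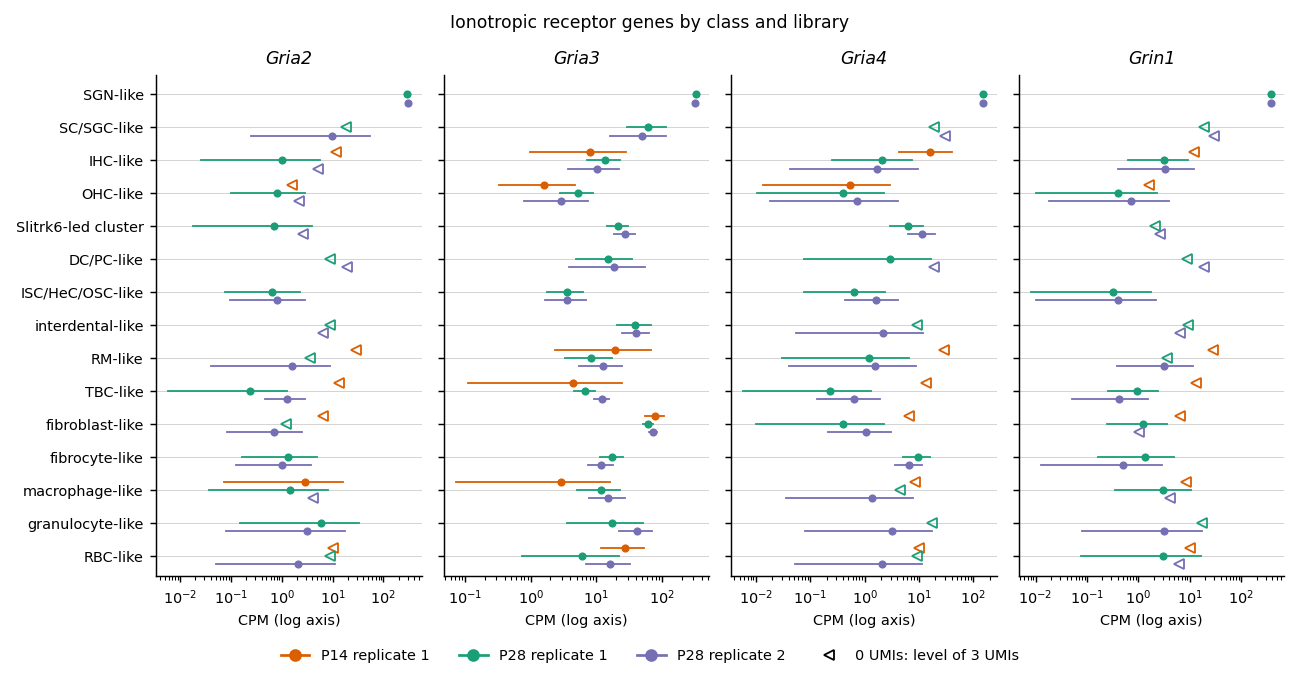
Level of each receptor gene (CPM, log axis) in 14 named classes and the Slitrk6-led cluster, 1 point per library with an exact Poisson 95% interval. Open triangles mark 0 UMIs and are drawn at the level of 3 UMIs. SGN-like cells at P28 sit far to the right for Gria2, Gria4 and Grin1, while Gria3 is also seen at 61.5 to 78.5 CPM in fibroblast-like cells.

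Within the SGN-like cells, receptor level and subunit mix differed by cluster. The largest cluster (13; 168 and 216 cells, median 18887.5 and 13963.5 UMIs per cell) held Gria2 at 293 and 299 CPM, Gria3 at 343 and 333, Gria4 at 159 and 154 and Grin1 at 412 and 392. Transcripts of all 4 genes were found together in 148 of 168 (88.1%) and 181 of 216 (83.8%) of its cells. Cluster 18, of 138 and 41 cells with a median of 1659 and 2754 UMIs, was lower for all 4: 130 and 151 CPM for Gria2, 154 and 182 for Gria3, 68.2 and 107 for Gria4, 167 and 201 for Grin1. All 4 genes were found together in 0 of 138 and 2 of 41 of its cells, at this lower depth. Fibroblast markers summed to 222 and 992 CPM there, beside 54.9 and 135 CPM over all SGN-like cells. SC/SGC markers summed to 188 and 1463 CPM, beside 457 and 741 CPM, so they were lower in replicate 1 and higher in replicate 2. Also above the SGN-like levels were Slc1a2 (10.2 and 132 CPM), Slc1a3 (98.9 and 257 CPM) and Glul (126 and 314 CPM). The part of these transcripts in the lower receptor level was not tested.

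Cluster 27 (19 and 23 cells) had a high Malat1 and low ribosomal share, a nucleus-like profile, and Gria2 was among the genes that led it. Gria2 stood at 1436 CPM (95% interval 1101 to 1841) and 1607 CPM (1266 to 2011) there, with Gria3 at 764 and 676, Gria4 at 185 and 127 and Grin1 at 417 and 528. Cluster 30 (8 and 16 cells), led by Rph3a, Kcnc4, Ngfr and the tyrosine hydroxylase gene Th, had Gria2 at 192 and 295 CPM, Gria3 at 107 and 83.0, Gria4 at 10.7 and 55.3 and Grin1 at 53.5 and 73.8. These clusters were defined on the same cells, so their levels are given as description.

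Of the AMPA subunit UMIs in SGN-like cells as a whole, Gria2 made up 38.0% and 39.7%, Gria3 42.6% and 41.3% and Gria4 19.3% and 18.9% in the 2 P28 libraries. Gria1, the remaining subunit gene, gave 0 and 2 UMIs. Cluster 13 followed this mix, with 36.8% and 38.0% Gria2, as did cluster 18 with 36.9% and 33.3%. In cluster 27 the Gria2 share was 60.2% (exact binomial 95% interval 50.1 to 69.7) and 66.7% (57.2 to 75.2), and that of Gria4 was 7.77% and 5.26%. In cluster 30 the Gria2 share was 62.1% (42.3 to 79.3) and 68.1% (52.9 to 80.9). The Gria2 shares of clusters 27 and 30 lay above those of clusters 13 and 18 in each library, but the interval of cluster 30 in replicate 1 overlapped that of cluster 18.

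**Figure D2:**
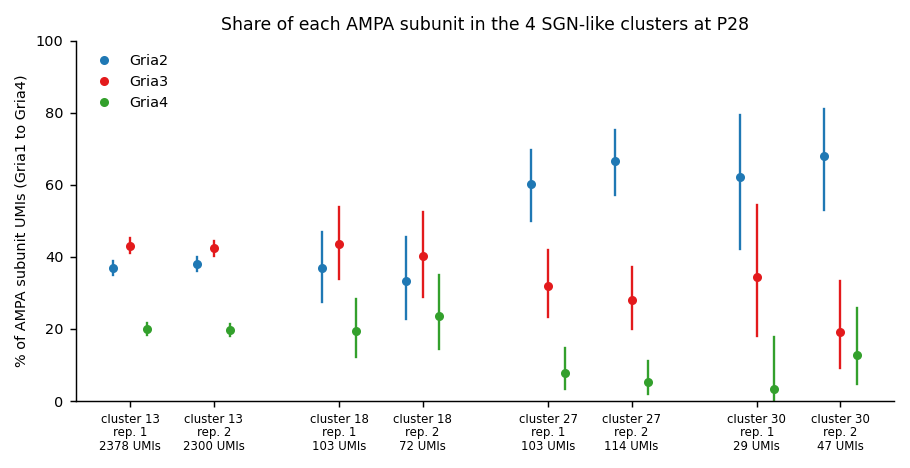
Share of AMPA subunit UMIs (percent) that came from Gria2, Gria3 and Gria4 in the 4 SGN-like clusters, 1 point per P28 replicate with an exact binomial 95% interval. Gria3 is the largest share in clusters 13 and 18, with overlapping intervals in cluster 18, and Gria2 is the largest in clusters 27 and 30.

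The share of cells with a receptor UMI fell when all cells were thinned to the same depth. Unthinned, 62.5% and 87.8% of SGN-like cells had a Gria2 UMI, 66.1% and 83.1% a Gria3 UMI, 54.4% and 70.9% a Gria4 UMI and 64.3% and 82.1% a Grin1 UMI. After each cell was thinned to 1000 UMIs the shares were 21.2% and 26.5% for Gria2, 23.9% and 30.6% for Gria3, 9.8% and 15.6% for Gria4 and 27.1% and 32.3% for Grin1, still lower in replicate 1, while the CPM of the 2 libraries were close. Cell shares are therefore not used to rank the libraries.

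Outside SGN-like cells, Gria3 was the receptor gene seen most. Fibroblast-like cells held it at 78.5, 61.5 and 72.6 CPM in the P14 and both P28 libraries, which is 0.235, 0.174 and 0.155 UMIs per cell. In red blood cell (RBC)-like cells, which are taken as a gauge of free RNA, it was 0.160, 0.0241 and 0.0430 UMIs per cell. Fibroblast-like cells were thus above that gauge at P28 in each library, whereas at P14 the RBC-like cluster, with 8 UMIs, came near. Against all other cells Gria3 was not called in fibroblast-like cells (log2 fold change 0.97, adjusted p = 0.230 by the same edgeR test), but was called once the P14 library or the largest cells were left out. Interdental-like cells held 39.4 and 40.4 CPM (log2 fold change -0.60, adjusted p = 0.0712, with a positive sign under the 3000-gene and 15000-UMI limits). Among named classes other than SGN-like cells at P28, the highest Gria2 level was 9.83 CPM, from 1 UMI in SC/SGC-like cells, and the highest Grin1 level 3.36 CPM, from 2 UMIs in IHC-like cells.

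In fibrocyte-like cells most Gria4 UMIs came from 1 cluster of the class. The class level was 9.41 and 6.67 CPM, below all other cells (log2 fold change -1.42, adjusted p = 0.000729), which include the SGN-like cells. Cluster 12 held Gria4 at 50.3 and 31.8 CPM (14 and 11 UMIs) and cluster 6 at 0 and 1.25 CPM (0 and 2 UMIs). When the cell limits were lowered to 3000 genes and 15000 UMIs the sign turned (log2 fold change 2.13 after re-clustering, adjusted p = 0.00349, and 2.07 without it, adjusted p = 0.00385). Under those limits 161 and 68 of the 333 and 296 SGN-like cells were left among the cells compared with.

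Glial cells around the neurons had the highest Glul level of any class seen in both P28 libraries. SC/SGC-like cells held Glul at 998 CPM (850 to 1164) and 1012 CPM (826 to 1228), or 2.27 and 2.29 UMIs per cell, and the log2 fold change against all other cells was 1.77 (SE 0.20, adjusted p = 0.000110). All 9 SC/SGC markers were seen in these cells, summing to 31738 and 27502 CPM. Of the 7 genes, Glul was the 1 called higher and 4 were lower, against 4.2% and 5.32% of all genes. Among the lower ones, Gria2 (0 and 1 UMIs), Gria4 and Grin1 passed the low-count filter through the other cells only and could only be lower. Slc1a3 was 248 and 275 CPM (log2 fold change -0.92, SE 0.18, adjusted p = 0.00615), below the average of all other cells. Per cell this was 0.563 and 0.622 UMIs, beside 0.301 and 0.559 in RBC-like cells, so that at P28 replicate 2 it was close to the free-RNA gauge. Slc1a2 rested on 8 and 5 UMIs (49.6 and 49.1 CPM, log2 fold change -0.27, adjusted p = 0.710) and Gria3 on 10 and 5 UMIs (adjusted p = 0.793). Gria4 and Grin1 had no UMI, which allows levels of up to 18.6 and 29.5 CPM in the 2 libraries. With barcodes of up to 30% mitochondrial UMIs admitted and the cells re-clustered, the Glul and Slc1a3 calls were lost (adjusted p = 0.0640 and 0.425). That setting also gave 80 SC/SGC-like cells at P14, so the P14 library and a library block entered its fit. The difference from all other cells, which include the SGN-like cells, changed sign for Slc1a2, Gria2, Gria3 and Gria4 under other cell limits.

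Set directly against SGN-like cells, SC/SGC-like cells differed for all 7 genes, 3 higher and 4 lower, where 18% of genes were higher and 25.5% lower. Gria4 and Grin1 had no UMI in SC/SGC-like cells and Gria2 had 0 and 1. These genes passed the low-count filter through the SGN-like sums only, so a call could only be lower. Glul was higher in SC/SGC-like cells by 3.36 on the log2 scale (SE 0.16, adjusted p = 5.81e-13, edgeR), Slc1a3 by 3.25 (SE 0.30, adjusted p = 1.28e-08) and Slc1a2 by 3.21 (SE 0.70, adjusted p = 0.000760). Gria2 was lower (-6.36, SE 0.51, adjusted p = 1.45e-09) and so was Gria3 (-2.59, SE 0.26, adjusted p = 3.97e-08). SGN-like cells had Glul at 75.7 and 109 CPM, and their Slc1a3, at 0.195 and 0.355 UMIs per cell, was below the RBC-like value in each library. SGN markers summed to 434 and 285 CPM in the SC/SGC-like cells, and their part in these values was not tested.

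Slc1a3 was widespread and was highest in the Slitrk6-led cluster. It stood at 1925 CPM (1854 to 1998) and 1939 CPM (1858 to 2022) there, and 94.1% and 95.9% of cells had a UMI. The cluster held 24.1% and 19.6% of all Slc1a3 UMIs at P28 with 5.84% and 4.83% of all UMIs. All 7 IPhC/IB markers were seen in it, summing to 1849 and 1915 CPM. This list does not set the cluster apart, as it summed to 4338 and 4374 CPM in SC/SGC-like and 2374 and 2472 CPM in SGN-like cells. Against all other cells Slc1a3 was higher by 2.43 on the log2 scale (SE 0.12, adjusted p = 1.25e-06), where 16.8% of genes were higher and 24.2% lower. It was the 1 gene of the 7 called higher there, and 5 were lower than in all other cells, which include the SGN-like cells. It was also higher than in Deiters' and pillar cell (DC/PC)-like cells by 4.37 (SE 0.22, adjusted p = 1.41e-10), where 6.41% were higher and 7.07% lower, and than in SC/SGC-like cells by 2.92 (SE 0.22, adjusted p = 5.35e-09), where 11.2% were higher. Glul did not follow: it was 202 and 274 CPM in this cluster (log2 fold change -0.18, adjusted p = 0.514) and lower than in SC/SGC-like cells by the same test (-2.05, SE 0.20, adjusted p = 1.90e-07). Slc1a2 was 10.4 and 13.3 CPM.

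After that cluster, the P28 order for Slc1a3 was a cluster led by the interferon-response genes Ifit3 and Isg15 (cluster 23; 1228 and 1136 CPM), fibroblast-like cells (1151 and 1040), IHC-like cells (895 and 797), fibrocyte-like cells (677 and 640) and tympanic border cell (TBC)-like cells (621 and 575). The ranges of cluster 23 and fibroblast-like cells overlapped, and the others in that order did not. A group with overlapping ranges followed, of macrophage-like (228 and 357 CPM), SC/SGC-like and cluster 10 cells (278 and 240). The lowest levels were in OHC-like cells (45.8 and 75.0) and SGN-like cells (19.0 and 32.4). The counting intervals of the 2 replicates did not overlap in macrophage-like cells.

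**Figure D3:**
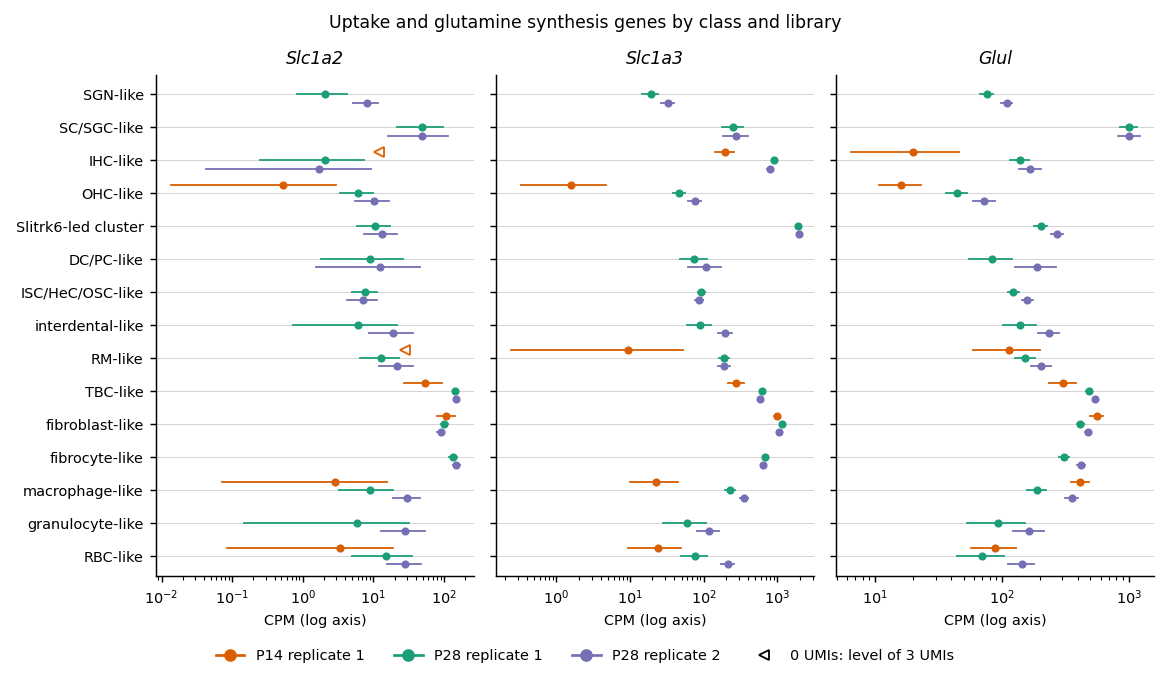
Level of Slc1a2, Slc1a3 and Glul (CPM, log axis) in 14 named classes and the Slitrk6-led cluster, 1 point per library with an exact Poisson 95% interval. Open triangles mark 0 UMIs, drawn at the level of 3 UMIs. Slc1a3 peaks in the Slitrk6-led cluster, Glul in SC/SGC-like cells and Slc1a2 in TBC-like and fibrocyte-like cells.

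IHC-like cells carried Slc1a3 UMIs at a high level, unlike OHC-like cells. In IHC-like cells the level was 194 CPM (144 to 257) at P14 and 895 (836 to 956) and 797 (727 to 872) at P28, and in OHC-like cells 1.60 (0.330 to 4.67), 45.8 (37.7 to 55.0) and 75.0 (61.3 to 90.9). Between the hair cells the log2 fold change was 4.06 (SE 0.37, adjusted p = 2.72e-05 by the edgeR test), with IHC-like cells higher in 3 of 3 libraries. This call was made in each of the 15 alternatives in which it could be tested. These are not independent checks, as resolution 2, for instance, held the same numbers of IHC-like and OHC-like cells. Glul was also higher in IHC-like than OHC-like cells by 1.17 (SE 0.21, adjusted p = 0.00193), a call that was lost in 4 of 15 alternatives, among them the fit with no replicate block and the one without P28 replicate 1. These were the 2 of 7 genes that could be tested between hair cells, where 17.2% of genes were higher and 16.8% lower.

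Several measurements moved with Slc1a3 in IHC-like cells. The 7 IPhC/IB markers were all seen in them and summed to 329, 984 and 927 CPM, beside 27.7, 150 and 156 CPM in OHC-like cells. The 10 leading genes of the Slitrk6-led cluster summed to 1046, 2899 and 3000 CPM in IHC-like and 59.7, 249 and 187 CPM in OHC-like cells, and to 5508 and 5904 CPM in that cluster itself. Median UMIs per IHC-like cell were 1025.5 at P14 and 9310 and 8007.5 at P28. The larger IHC-like cluster at P28 (cluster 22, median 9801 UMIs) had Slc1a3 at 922 and 810 CPM with 94.1% and 86.6% of cells positive. The smaller one (cluster 28, median 1029 UMIs) had 172 CPM from 6 UMIs in P28 replicate 1, with those leading genes at 374 CPM. With cells over 3000 genes or 15000 UMIs taken out, the IHC-like level was 86.0, 498 and 329 CPM. The part of the supporting cell transcripts and of the depth in these levels was not tested.

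Against all other cells, Slc1a3 was not called in IHC-like cells (log2 fold change 0.60, SE 0.22, adjusted p = 0.0609), although higher in 3 of 3 libraries. The call depended on which cells were counted. It was higher without the P14 library (0.79, adjusted p = 4.68e-14) and with up to 30% mitochondrial UMIs (0.60, adjusted p = 0.0305), and it was lower under the 3000-gene and 15000-UMI limits (-1.03 after re-clustering, adjusted p = 0.00844, and -1.04 without it, adjusted p = 0.00833). The other genes were lower or not called in IHC-like cells: of 6 tested, 0 were higher and 4 lower, against 13.8% and 20.6% of all genes. Gria3 was at 7.92, 13.4 and 10.1 CPM (adjusted p = 0.000961) and Grin1 at 0, 3.10 and 3.36 CPM (adjusted p = 0.000121). The cells compared with include the SGN-like cells at P28, which held most UMIs of both genes. Slc1a2 had 0, 2 and 1 UMIs (adjusted p = 7.07e-05). Glul, at 19.8, 138 and 166 CPM, was lower by 1.45 on the log2 scale (adjusted p = 0.0136), a call lost with no replicate block (adjusted p = 0.156), as were those of Gria3 and Grin1. The Gria3 call was also lost under the 3000-gene and 15000-UMI limits, with and without re-clustering. Gria4 had 4, 2 and 1 UMIs and was not called (adjusted p = 0.0580).

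**Figure D4:**
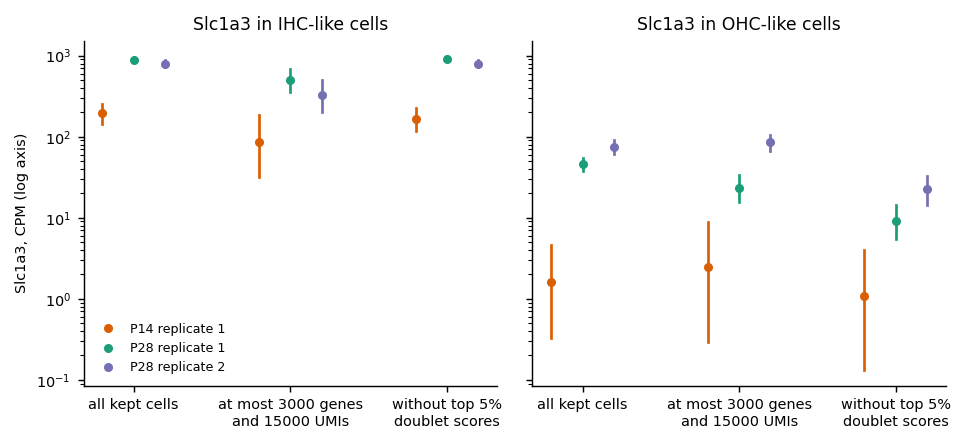
Slc1a3 level (CPM, log axis) in IHC-like and OHC-like cells by library, with exact Poisson 95% intervals, for all kept cells, for cells of at most 3000 genes and 15000 UMIs, and without the 5% highest doublet scores. IHC-like cells lie above OHC-like cells in every library and setting, and both are lower at P14. Among all kept cells, the median UMIs per IHC-like cell were also lower at P14.

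In OHC-like cells all 5 genes tested were lower than in all other cells, which include the SGN-like cells at P28. In this comparison 30.2% of genes were lower and 26.1% higher. Slc1a3 was lower by 3.70 on the log2 scale (SE 0.71, adjusted p = 0.0125), lost without P28 replicate 1. At P28 it amounted to 0.310 and 0.366 UMIs per OHC-like cell, beside 0.301 and 0.559 per RBC-like cell. The part of free RNA in it was not tested. Without the 5% of cells with the highest doublet scores, which took away 12.3% and 16.9% of the P28 OHC-like cells, it was 1.09, 9.10 and 22.5 CPM. IHC-like cells at P28 had 7.67 and 6.24 Slc1a3 UMIs per cell, beside the same RBC-like values. The RBC-like gauge does not cover supporting cell transcripts in the same barcodes, and the source of these UMIs was not tested. Glul in OHC-like cells was 44.1 and 72.8 CPM at P28 and below both at P14 (log2 fold change -2.69, adjusted p = 0.00419) and Slc1a2 was 0.533, 6.08 and 10.1 CPM (-3.13, adjusted p = 0.00404).

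Most Slc1a2 UMIs at P28 came from connective tissue classes. TBC-like cells, which line the scala tympani side of the basilar membrane, held 50.2% and 47.0% of its P28 UMIs, fibroblast-like cells 20.5% and 17.4% and fibrocyte-like cells 16.2% and 19.7%. It was 53.3, 144 and 150 CPM in TBC-like cells (log2 fold change 2.19, SE 0.18, adjusted p = 1.91e-06, edgeR), 135 and 151 CPM in fibrocyte-like cells (1.65, adjusted p = 1.54e-05) and 109, 102 and 90.3 CPM in fibroblast-like cells (1.60, SE 0.43, adjusted p = 0.0291, lost at resolution 2, with no replicate block and with at least 10 UMIs in every sum). At P28 the fibrocyte-like range overlapped that of TBC-like cells and that of cluster 10 (123 and 142 CPM, log2 fold change 1.29, adjusted p = 0.00174), while the latter pair did not overlap. At P14 the highest Slc1a2 level was in an unnamed cluster of 27 cells led by genes that include the myelin genes Mbp and Mobp, with 307 CPM (194 to 460) and a UMI in 44.4% of cells. Mog and Gfap, genes of central glia, were also among its leading genes. Its highest score was on the SGN list (3 of 9 markers), close to that on the IPhC/IB list (4 of 7). It stayed unnamed because more SC/SGC markers than markers of those lists were among its leading genes.

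All 3 uptake genes were called higher in each of the 3 connective tissue classes, not all of them in every alternative. These classes were not sharply apart by markers. The larger TBC-like cluster at P28 (cluster 1, 1396 cells) scored 12.37 on the fibrocyte list and 12.21 on the TBC list. TBC-like cells had 3 of 5 tested genes higher (background 24.5%), fibroblast-like cells 3 of 5 (14.9%) and fibrocyte-like cells 3 of 7 (18.2%). Slc1a3 was 1003, 1151 and 1040 CPM in fibroblast-like cells (log2 fold change 2.13, SE 0.37, adjusted p = 0.00575), 275, 621 and 575 CPM in TBC-like cells (0.70, SE 0.20, adjusted p = 0.0114) and 677 and 640 CPM in fibrocyte-like cells (0.67, adjusted p = 0.000502). The TBC-like call was lost without either P28 library, with no replicate block and with at least 10 UMIs in every sum, and the fibrocyte-like call under the 3000-gene limit. Glul was 560, 417 and 477 CPM in fibroblast-like cells (1.20, SE 0.25, adjusted p = 0.0115), 302, 484 and 546 CPM in TBC-like cells (1.21, SE 0.22, adjusted p = 0.000787) and 312 and 423 CPM in fibrocyte-like cells (0.53, adjusted p = 0.0461). The first 2 of these Glul calls were lost without P28 replicate 1 (adjusted p = 0.0873 and 0.0792). The third was lost in 5 of 13 alternatives, among them DESeq2, P28 libraries merged without integration and the 3000-gene limit, with the log2 fold change down to 0.12.

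Single levels of Glul stood out beyond these classes. Stria intermediate cell-like cells, pigment cells of the stria vascularis, had 1675 CPM and a UMI in 91.3% of cells, the highest level of any class, but were numerous enough only in P28 replicate 2. Stria marginal cell-like cells had 577 CPM in the same library. SC/SGC-like cells came next, then cluster 10 (591 and 588 CPM; log2 fold change 1.12, adjusted p = 0.00278, with 8.24% of genes higher and 12.3% lower), cluster 23 (531 and 514 CPM; 0.86, adjusted p = 0.0479, with 3.45% higher and 5.31% lower) and TBC-like cells, whose ranges overlapped those of cluster 23 only. Because of their number, TBC-like cells held 35.8% and 32.4% of the P28 Glul UMIs and SC/SGC-like cells 2.76% and 1.31%. OHC-like cells were lowest.

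**Figure D5:**
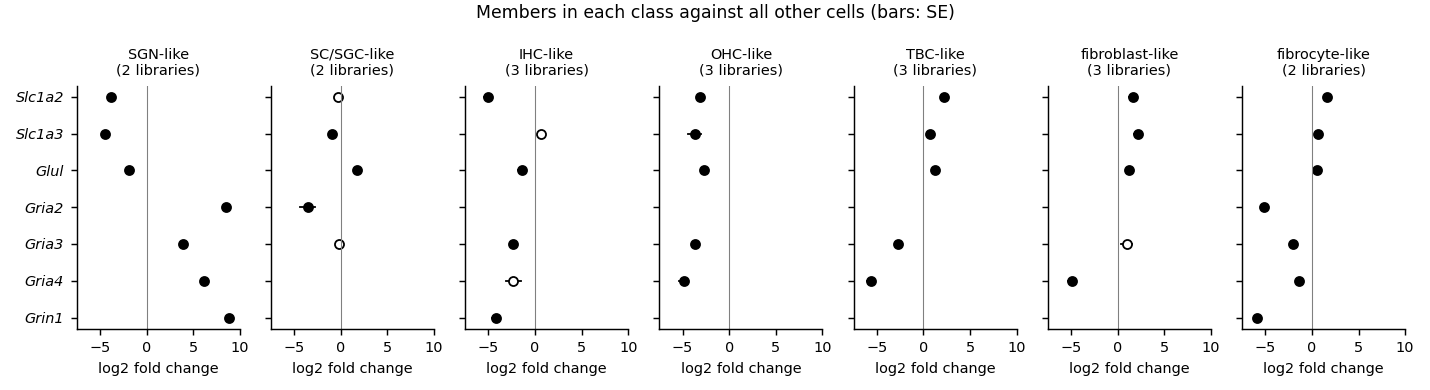
Log2 fold change of each gene, class against all other cells of the same libraries, with its standard error (edgeR quasi-likelihood test), for 7 classes. Filled points passed an adjusted p of 0.05, open points did not, and genes not tested or with 0 UMIs in the class are left out. Receptor genes called higher are those of SGN-like cells, and uptake genes called higher lie in fibroblast-like, TBC-like and fibrocyte-like cells and, for Glul, in SC/SGC-like cells.

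The remaining classes were lower or not called for the 7 genes against all other cells, which include the SGN-like cells. All 7 were lower in DC/PC-like cells (13.9% of genes lower, 8.1% higher) and in inner sulcus, Hensen and outer sulcus-like cells (29.3% lower, 23.7% higher), and all 6 tested in Reissner's membrane-like cells (20.2%). Of 7 genes, 5 were lower in macrophage-like (16.6%), granulocyte-like (13.9%) and interdental-like cells (14.2%), and none was higher by the edgeR test. With no replicate block, all 6 calls in Reissner's membrane-like cells and 4 of the 5 in macrophage-like cells were lost. The Slc1a3 call changed sign and was lost in DC/PC-like cells with up to 30% mitochondrial UMIs and in interdental-like cells at resolution 2. In DC/PC-like cells the Gria2, Gria3, Gria4 and Grin1 calls were lost under the 3000-gene and 15000-UMI limits, with and without re-clustering. Those of Slc1a2, Glul and Gria3 were lost there with up to 30% mitochondrial UMIs. Gria2 and Grin1 had no UMI in this class, so they passed the low-count filter through the other cells only and could only be lower. In RBC-like cells 0 of 6 were called, where 0.9% of genes were higher and 1.33% lower.

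Several uptake gene levels at P14 lay below both P28 levels. In the 7 classes with at least 10 cells in all libraries, the P14 level lay outside both P28 levels (intervals overlapping neither) in 11 of 49 gene and class pairs, each time below. Of all genes, 4.08% lay below and 3.67% above in the IHC-like class, 9.7% and 6.21% for OHC-like, 3.02% and 3.28% in TBC-like, 2.76% and 5.19% in fibroblast-like, 2.79% and 2.86% in macrophage-like, 1.1% and 1.82% in Reissner's membrane-like, and 1.19% and 10.9% in RBC-like cells. Slc1a3 gave 6 of them, in IHC-like, OHC-like, TBC-like, macrophage-like (22.8 against 228 and 357 CPM), Reissner's membrane-like (9.50 against 190 and 190 CPM) and RBC-like cells (23.6 against 75.7 and 212 CPM), and its 1 class with overlap was fibroblast-like. The macrophage-like cluster at P14 was led by S100a9 and S100a8 and also had 6 of 7 granulocyte markers enriched. At resolution 2 the P14 library had 47 granulocyte-like and 29 macrophage-like cells, so its macrophage-like level mixes both types. Over all kept cells Slc1a3 was 156 CPM at P14 and 467 and 477 at P28. The free-RNA gauge thus moved the same way as the other classes, and its part in them was not tested. The gauge was not made of like cells at both ages. Beside haemoglobin genes, the RBC-like cluster was led at P14 by genes that include Hist1h1b, Mki67 and Top2a, and at P28 by genes that include Alas2 and Bpgm. Glul was below both P28 levels in IHC-like, OHC-like and TBC-like cells, and Slc1a2 in OHC-like and TBC-like cells. IHC-like cells also differed in depth, with a median of 1025.5 UMIs at P14 beside 9310 and 8007.5 at P28. The part of depth in their levels was not tested. The receptor genes overlapped P28 in all 7 classes, on few UMIs. Age cannot be told apart from the single P14 library.

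Receptor UMIs at P14 were few: 8 for Gria2, 80 for Gria3, 28 for Gria4 and 5 for Grin1 in 1662 cells. Of these, the P14 class named for bone cells held 5, 10, 13 and 5, and 6 of 9 SGN markers were seen in it at 715 CPM in sum. Its Gria2 and Grin1 UMIs came from 2 of 85 cells each. Other lists were seen in it too, with 9 of 9 SC/SGC markers at 1501 CPM and 6 of 7 IPhC/IB markers at 4478 CPM. The 25 P14 barcodes above 6000 genes held 148 receptor UMIs, more than the 121 in all kept P14 cells. Among them 3 barcodes had SGN markers at 16662 to 19660 CPM and receptor genes at 937 to 1096 CPM in sum. The upper gene limit thus left out P14 barcodes with SGN markers.

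Of the other 61 genes of the glutamate pathway list, 48 were tested in SGN-like cells, and 29 were higher and 12 lower, beside 34.9% and 41.6% of all genes. The vesicular transporters Slc17a7 (log2 fold change 8.47, 1079 CPM) and Slc17a6 (7.89) were higher. Among receptors and their partners the AMPA receptor auxiliary subunit genes Cacng2 (8.02) and Cacng7 (3.92), the metabotropic genes Grm8 (8.01) and Grm7 (4.64), the kainate receptor genes Grik2 (6.83) and Grik4 (4.69) and the scaffold genes Shank1 (6.49) and Dlg4 (1.72) were higher by the edgeR test. So were the neuronal transporter Slc1a1 (7.58), the glutaminase Gls2 (5.73), which makes glutamate from glutamine, and the aminotransferases Got1 (4.55) and Got2 (2.36). The 12 lower included Slc17a8 (-7.42) and Slc1a5 (-4.83).

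IHC-like cells had 12 of 36 tested pathway genes higher and 14 lower, beside 13.8% and 20.6% of all genes. Slc17a8, the vesicular transporter that fills IHC vesicles, led (log2 fold change 7.55, 1708 CPM), followed by the NMDA subunit gene Grin2c (5.55). The glutamine transporters Slc1a5 (2.83) and Slc38a1 (1.76) were higher too. OHC-like cells had 9 of 31 higher and 11 lower, near the 26.1% and 30.2% of all genes, and shared Slc1a5 (2.60) and Slc38a1 (2.16) with IHC-like cells, while Cacng5 (5.09) led. Directly compared, 3 of 19 tested were higher in IHC-like cells (Grin2c 5.75, Slc17a8 4.93, Grm4 4.68) and 7 lower, Cacng5 most (-7.34), beside 17.2% and 16.8% of all genes. In SC/SGC-like cells 3 of 47 were higher, the AMPA receptor partner Cnih2 (4.27), Dlgap1 (1.68) and the glutamine transporter Slc38a2 (0.88), and 7 lower, beside 4.2% and 5.32% of all genes. Against SGN-like cells 2 of 32 were higher, Cnih2 (2.60) and the kainate subunit gene Grik1 (3.06), and 22 lower, beside 18% and 25.5%.

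Genes with the most similar pattern were sought by Pearson correlation of log2(CPM + 10) over 28 points (14 classes in 2 P28 libraries, so not independent) among 8887 genes of at least 50 CPM in some class. For Gria2 these were Sez6, Rbfox3 and Sptbn4 (each 0.99), for Grin1 Car10, Kcnip1 and Slc45a1 (each 0.99), and for Gria4 Kcnt1 (0.99) with Ankrd34b and Kcnab3. Gria3 had Rab30 (0.91), Ntng1 (0.88) and Iglon5 (0.87). Slc1a2 was closest to Zic2 (0.97), Zic5 (0.96) and Samd4 (0.95), Slc1a3 to Pdzrn3 (0.93), Anpep (0.88) and Lgr6 (0.84), and Glul to Lamc1 (0.94), Gpm6b (0.91) and Tiparp (0.91). Among themselves, the receptor genes correlated at 0.75 to 0.98 and the uptake genes at 0.65 to 0.77. For the receptor genes 1 class, the SGN-like cells, sets these values.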

How the data were processed

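The authors deposited a filtered matrix of UMI counts per gene and barcode for each library, made with Cell Ranger (version 5.0.1 in the file headers, 6.0.1 in the labels) on mm10, with no normalization. Barcodes of 200 to 6000 genes and at most 15% mitochondrial UMIs were kept. Each age was clustered with Seurat 5.3.0 (2000 variable genes, 30 principal components, resolution 1, both P28 libraries integrated). The 7 genes, the 61 other genes of the pathway list and the marker lists were chosen with earlier results of these data known, and none of the 68 pathway genes was used to cluster or name cells; the naming rule was set after the clusters were seen. A class needed at least 3 enriched markers. Scrublet (scanpy 1.11.5) called 3, 0 and 1 doublets, too few to have worked, so removing the 5% highest scores was added as an alternative.

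UMI counts were summed per class and library, and classes with at least 10 cells in each library were tested against all other cells with the edgeR 4.0.16 quasi-likelihood test in R 4.3.3 (TMM, low-count filter, Benjamini-Hochberg adjustment over all genes tested, threshold 0.05), with library as a block where all 3 libraries entered. A class and the other cells of its library come from the same mice, and their deviations correlated in every library checked (0.24 to 0.55). The test was checked on simulated data of fixed dispersion. These had no library effect, no pairing and no difference between ages, so the check does not cover those features of the real sums. Libraries pooled mice, so p-values measure spread between libraries and not between animals. With library as a block, this is the spread of the class difference across the 3 libraries. It includes any change of that difference with age, which was not separated from spread between replicates. In fits without a block, differences in level between libraries entered the spread as well. Median UMIs per kept cell were 2475.5, 2421 and 2036. Barcodes over the mitochondrial limit made up 19.8%, 50.1% and 59.2%, and were not analysed except as an alternative. Named genes were the 7, the called pathway genes in SGN-like, SC/SGC-like, IHC-like and OHC-like cells (counts, with examples), and the 3 genes most similar to each of the 7. Exact Poisson and binomial intervals are at 95%, and a count of 0 allows up to 3 UMIs. Comparisons of unnamed clusters were added after the data were seen. Symbols, positions and promoters came from GENCODE M21 and RefSeq on GRCm38.p6, and 32235 of 32285 identifiers matched. Some genes of the lists are not reported here. Other resolutions, cell limits, normalizations, filters and DESeq2 1.42.0 were tried.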

Additional observations from a re-analysis of the deposited data

Results flagged for a closer look

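Receptor and uptake transcripts were also counted in barcodes that the limits on cells left out. The 4 receptor genes had 170 UMIs there at P14, then 1634 and 534 at P28 (replicates 1 and 2). The uptake genes had 733, 7557 and 12370. The P28 receptor UMIs above the upper gene limit were 1086 in 76 barcodes of replicate 1 and 14 in 3 barcodes of replicate 2. Barcodes over the mitochondrial limit held 20, 546 and 516 receptor and 335, 5741 and 12233 uptake UMIs in the 3 libraries. Of the P14 barcodes above the gene limit, 4 had Gria2 UMIs, 44 in sum, beside 40 for Gria3, 17 for Gria4 and 37 for Grin1. In 1 of these 4, with SGN markers at only 5163 CPM, Gria2 (19 UMIs), Slc1a2 (11) and Gria4 (5) were seen without Gria3 or Grin1.

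Against all other cells, 4 gene and class pairs pointed up at P14 and down in both P28 libraries, as log2 ratios of CPM + 10, and this difference was not tested. They were Gria4 in IHC-like cells (0.95 at P14, -1.44 and -1.50 at P28, on 4, 2 and 1 UMIs), Gria3 in RBC-like cells (0.88, on 8, 2 and 8 UMIs), Gria3 in Reissner's membrane-like cells (0.49, on 2, 7 and 8 UMIs) and Gria2 in macrophage-like cells (0.23, on 1, 1 and 0 UMIs). The other cells of the P14 library include no SGN-like class.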

How the results depend on the processing

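In comparisons over 3 libraries, 29 of 40 tested pairs of gene and class were called (DESeq2 28). Of all genes, 0.9% (RBC-like) to 26.1% (OHC-like) were higher and 1.33% (RBC-like) to 30.6% (TBC-like) lower, by class. The other cells include the SGN-like cells at P28, which held most receptor UMIs. The count was 6 when every sum needed at least 10 UMIs, since few pairs were then tested, and 14 with no replicate block. Leaving out 1 library gave 22 to 43. In comparisons over the 2 P28 libraries, 43 of 49 were called (45 with a replicate block, DESeq2 36). Of all genes, 4.2% (SC/SGC-like) to 34.9% (SGN-like) were higher and 5.32% to 41.6% lower in the same classes. The count was 23 with cells of at most 3000 genes and 15000 UMIs after re-clustering and 28 without re-clustering. It was 28 with up to 30% mitochondrial UMIs and 22 with at least 10 UMIs in every sum. After re-clustering, some of these classes were also seen at P14 and were then fitted over all 3 libraries. Between IHC-like and OHC-like cells 2 were called, where 17.2% of all genes were higher and 16.8% lower. The count was 1 under both forms of the 3000-gene limit and with no replicate block, and 1 to 3 without 1 library. It was 0 with at least 10 UMIs in every sum, as neither gene was then tested. Between SC/SGC-like and SGN-like cells all 7 were called (7 with the replicate block), and 2 with at least 10 UMIs in every sum. There 18% of all genes were higher and 25.5% lower. The receptor calls in SGN-like cells kept side and direction in 13 of 13 alternatives. Log2 fold changes were 7.98 to 8.50 for Gria2, 3.35 to 3.96 for Gria3, 5.24 to 6.30 for Gria4 and 8.30 to 8.92 for Grin1. Several alternatives held nearly the same SGN-like cells: 333 and 296 at resolution 2, 333 and 295 without Scrublet doublets, 334 and 296 without integration. The 13 are thus not independent checks.

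Among SGN-like, SC/SGC-like, hair cell, fibroblast-like, TBC-like and fibrocyte-like classes, the log2 fold changes against all other cells that changed sign were those of SC/SGC-like cells under the re-clustered 3000-gene limit (Slc1a2 0.54, Gria2 1.81, Gria3 1.10, Gria4 1.31), without re-clustering (Gria3 1.03) and with up to 30% mitochondrial UMIs (Slc1a2 1.09, Gria2 0.13, Gria3 0.42, Gria4 0.75). The others were Slc1a3 in IHC-like cells (-1.03 and -1.04) and Gria4 in fibrocyte-like cells (2.13 and 2.07), with and without re-clustering. For SC/SGC-like cells the 30% setting also gave 80 cells at P14, so that fit took in all 3 libraries. In the classes described by counts, 2 called pairs also changed sign, both losing the call: Slc1a3 in DC/PC-like cells with up to 30% mitochondrial UMIs (0.33, adjusted p = 0.408) and in interdental-like cells at resolution 2 (0.16, adjusted p = 0.436). Pairs not called there changed sign 15 times. The cause was not tested. Without P28 replicate 1, calls were lost for Slc1a3 in OHC-like and TBC-like cells and Slc1a2 in macrophage-like cells. Those of Glul in TBC-like, fibroblast-like and Reissner's membrane-like cells and between hair cells were lost too. Without P28 replicate 2, the calls of Glul in Reissner's membrane-like and Slc1a3 in TBC-like cells were lost. Without the P14 library 14 further pairs were called. These fits hold fewer libraries, and without a P28 replicate they set 1 library of each age together, so why calls were lost was not tested. Among named classes with at least 10 cells in both P28 libraries, the class with the highest level was the same for 7 of 7 genes in 3 alternatives. For Slc1a3 this was the fibroblast-like class, as the Slitrk6-led cluster did not enter. Stria intermediate cell-like cells, highest for Glul, did not enter either. Comparisons of the unnamed clusters were not put through the alternatives. Comparisons over 2 libraries could not leave 1 out. Receptor counts outside SGN-like cells were too small to order the classes.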
